A study of Drosophila melanogaster with 11 samples.

Results

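Ageing of the antenna in mir-284 knockout (KO) flies was followed in the 5 KO libraries of an RNA sequencing series of 11 libraries, with 2 libraries at 25 d after eclosion set against 3 at 3 d. Libraries were chosen by the genotype and age in their labels, and every gene of the deposited table was eligible. Of the 16727 genes counted, 11867 passed a filter on low counts and were tested, and 21 of these had no count in any KO library. The KO flies carried the genotype w1118;;mir-284 KO and had been backcrossed 7 times to the w1118 strain. The 6 wild-type (WT) libraries, 3 at 25 d and 3 at 3 d, came from w1118;; flies, so the labels give the w1118 allele of the eye-colour gene white to all groups. RNA came from the third antennal segment and was selected for poly(A) tails. The series asks how the antennal transcriptome depends on mir-284 as flies age. Fly sex, time of day at dissection, the number of antennae per library and how the deletion was made are not given in the sources used here.

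The third antennal segment is the main olfactory organ of Drosophila. Its sensory hairs house neurons that express odorant receptors with the co-receptor Orco, or ionotropic receptors, and support cells around them secrete odorant binding proteins into the fluid of the hair. MicroRNAs such as miR-284 are short RNAs that pair with target messenger RNAs and lower their stability or translation. Olfactory neurons also carry their own circadian clock, in which the proteins of per and tim feed back on their own transcription.

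Total counts were 55485825 and 32844144 in the KO libraries at 25 d (replicates 1 and 2) and 29592192 to 37087180 in those at 3 d. Levels are given as CPM, a library's counts rescaled to a common total, after TMM scaling, a correction for differences in library composition, and a log2 fold change above 0 means higher at 25 d. For each 25 d library alone, the log2 difference is its log2(CPM + 0.5) minus the mean over the 3 KO libraries at 3 d. The antennal gene Orco was abundant in all 5 libraries. It was at 3724 and 2107 CPM at 25 d, against 2545, 2513 and 1576 CPM at 3 d. The filter, which does not describe single libraries, was passed by 45 of the 60 odorant receptor genes counted. ninaE, the main opsin gene of the eye, was above Orco in KO 3 d replicates 2 and 3, at 3913 and 2394 CPM. It was below Orco in KO 3 d replicate 1 (847 CPM) and in both 25 d libraries (586 and 349 CPM). The part of tissue from outside the antenna was not tested. mir-284 itself had 0 counts in every library of both genotypes, which allows up to 3 counts in each. As RNA was selected for poly(A) tails, which the precursor lacks, this checks no label. white (w), named whatever its value, was at 43.3 and 32.0 CPM at 25 d, against 117, 107 and 153 CPM at 3 d (log2 fold change -1.74, SE 0.59, adjusted p = 0.356). In WT it was at 1.07 to 5.70 CPM at 25 d and 0.902 to 2.26 CPM at 3 d, so every KO library lay above all WT libraries although the labels give both genotypes the same allele. The source of this white RNA was not tested. GluRIIA, a glutamate receptor subunit and reported target of miR-284, was at 19.7 and 24.8 CPM, against 23.2, 20.4 and 25.2 CPM, with overlapping groups. GluRIIB, another glutamate receptor subunit gene, was at 2.72 and 0.649 CPM at 25 d, against 0.162, 0.108 and 0.138 CPM at 3 d (log2 fold change 3.60, SE 1.03, adjusted p = 0.298). These levels rest on 106 and 23 counts at 25 d and on 6, 4 and 4 counts at 3 d.

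The 2 libraries at 25 d differed widely from each other. Replicate 1 needed a TMM factor of 0.702, against 0.978 to 1.10 in the other 10 libraries, so its CPM values are raised relative to its raw shares. It had 10447 genes with a count, against 11801 to 13682 elsewhere, and its 10 most abundant genes took 22.6% of its counts, against 7.06% to 11.8%. Its median absolute log2 difference from the 3 d libraries was 0.575, and that of replicate 2 was 0.233. For comparison, single 3 d libraries differed from the mean of their 2 partners by medians of 0.173, 0.212 and 0.305. Replicate 2 was therefore about as close to the 3 d libraries as these were to each other, while replicate 1 was further away. In replicate 1, 12.3% of tested genes were at least 1 log2 unit above the 3 d mean and 13.4% at least 1 below, against 1.28% and 2.98% in replicate 2.

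**Figure D1:**
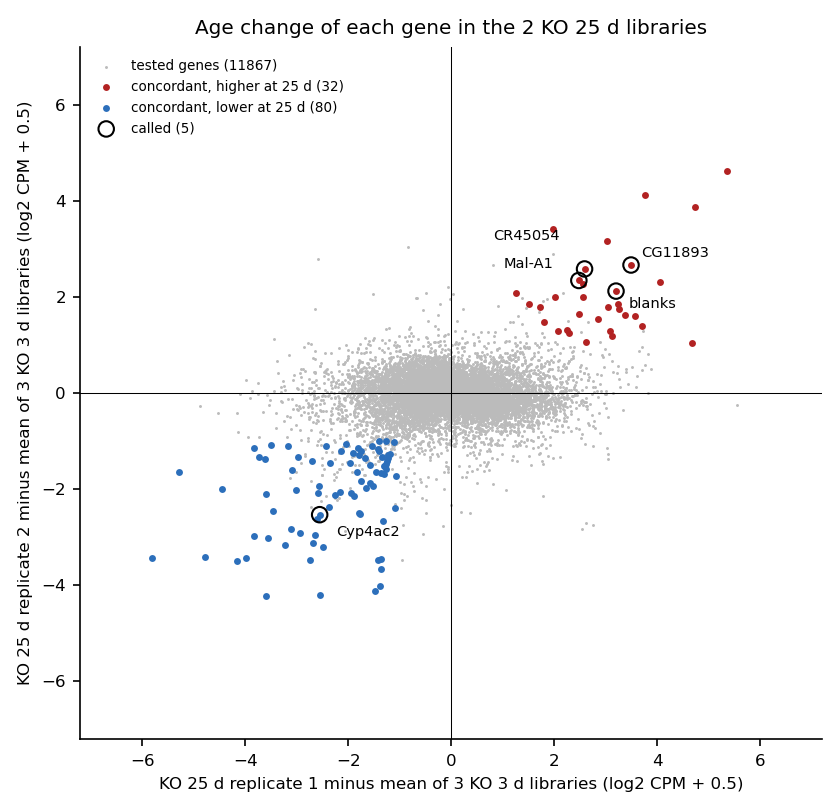
Each point is 1 of the 11867 tested genes, with its log2 difference from the mean of the 3 KO 3 d libraries in KO 25 d replicate 1 (x axis) and in replicate 2 (y axis). The cloud is wider along x than along y; 32 concordant genes (red) lie in the upper right, 80 (blue) in the lower left, and the 5 called genes are circled.

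Between 25 d and 3 d, 5 genes of the KO antenna changed past an adjusted p of 0.05 (0.0421% of the 11867 tested), 4 upward (0.0337%) and 1 downward (0.00843%). The same test called 18 genes (0.152%) with age in WT, which had 3 libraries at each age. These counts cannot be compared directly, as KO had 2 libraries at 25 d that differed widely from each other. The 4 that rose were CG11893, the maltase gene Mal-A1, the small RNA pathway gene blanks and the non-coding RNA CR45054, and the cytochrome P450 gene Cyp4ac2 fell. The test was edgeR's quasi-likelihood test over all 11 libraries with Benjamini-Hochberg adjustment, as for every adjusted p below. Without adjustment 1404 genes (11.8%) had p under 0.05, 797 of them higher (6.72%) and 607 lower (5.12%).

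CG11893 (dm6, 3R, 25289889 to 25291366), a gene of the ecdysteroid kinase-like family, was at 123 and 68.9 CPM in replicates 1 and 2 at 25 d, against 12.8, 11.2 and 8.0 CPM at 3 d. Both 25 d libraries lay far above all 3 libraries at 3 d (log2 fold change 3.17, SE 0.27, adjusted p = 0.00282). The KO 3 d level was close to that of WT, which was at 12.7 to 15.95 CPM at 25 d and 10.8 to 13.2 CPM at 3 d. CG10514, another member of the family, was at 8.47 and 6.91 CPM at 25 d, against 0.893, 0.595 and 1.83 CPM at 3 d, and did not pass the test (adjusted p = 0.313).

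Mal-A1 (2R) encodes a maltase, an enzyme that releases glucose from maltose. Its level was 19.9 and 18.1 CPM at 25 d, against 3.81, 3.60 and 2.28 CPM at 3 d (log2 fold change 2.55, SE 0.27, adjusted p = 0.0107). The 25 d libraries were nearly equal and well clear of the 3 d ones. Exons of Mal-A1 overlap those of Cyp4e1 on the other strand and strand was ignored in counting, so reads of the pair cannot be told apart. In WT the gene was also called with age (log2 fold change 1.87, adjusted p = 0.0241), and the 2 age changes differed by 0.68 (SE 0.36, adjusted p = 0.790).

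blanks (3L, 5497523 to 5498958) encodes a double-stranded RNA binding protein of the small interfering RNA pathway, best known from the testis. It was at 89.6 and 42.2 CPM at 25 d, against 8.66, 10.01 and 9.30 CPM at 3 d (log2 fold change 2.82, SE 0.36, adjusted p = 0.0336). The WT age change was 3.23 (adjusted p = 0.0103). Levels in WT were lower at both ages, at 24.0 to 31.7 CPM at 25 d and 1.99 to 4.27 CPM at 3 d.

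CR45054 (3R, 10083381 to 10090525), a long non-coding RNA, was at 16.9 and 16.9 CPM at 25 d, against 2.27, 2.87 and 2.11 CPM at 3 d (log2 fold change 2.80, SE 0.33, adjusted p = 0.0229). WT libraries were at 2.00 to 3.28 CPM at 25 d and 1.06 to 1.58 CPM at 3 d, near the KO 3 d level. The difference of the age changes did not pass the test (log2 1.95, SE 0.45, adjusted p = 0.673).

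Cyp4ac2 (2L, 5266392 to 5268455) belongs to the cytochrome P450 family of oxidising enzymes. It was at 8.08 and 8.23 CPM at 25 d, against 44.6, 36.8 and 75.9 CPM at 3 d (log2 fold change -2.68, SE 0.35, adjusted p = 0.0361). All 6 WT libraries were above every KO library, at 105 to 138 CPM at 25 d and 110 to 198 CPM at 3 d.

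How far these calls rest on single libraries differed among the 5 genes. In 11 fits 1 library was left out in turn. Those without a KO 25 d library leave 1 in that group, so their p-values hold no spread within it. CG11893 stayed called without any 1 of the WT or KO 3 d libraries (adjusted p up to 0.0456). Without KO 25 d replicate 1 its log2 fold change was 2.70. With the KO libraries alone edgeR called 0 genes, and CG11893 had an adjusted p of 0.444. Mal-A1 lost its call without KO 3 d replicate 1 or 2 (adjusted p = 0.0599 and 0.0586), and without KO 25 d replicate 1 its log2 fold change was 2.49. CR45054 lost its call without KO 25 d replicate 1 (0.0853), any KO 3 d library (0.189, 0.0619 and 0.144) or WT 25 d replicate 3 (0.0586). For blanks the call ended without KO 25 d replicate 1 (0.104), any KO 3 d library (0.220, 0.141 and 0.226) or any WT 25 d library (0.0980, 0.0903 and 0.101). Cyp4ac2 was no longer called without KO 25 d replicate 1 (0.281), any KO 3 d library (0.145, 0.0586 and 0.0580), any WT 25 d library (0.0980, 0.0903 and 0.135), or WT 3 d replicate 1 or 2 (0.0940 and 0.0611). The log2 fold changes moved less: over those 11 fits they ran from -2.88 to -2.32 for Cyp4ac2 and from 2.19 to 3.26 for blanks. Across all genes, 2 were called without KO 25 d replicate 1 (0.0159% of 12565) and 4084 without replicate 2 (32.3% of 12643), a fit in which the lone replicate 1 is assumed to vary like the other groups.

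**Figure D2:**
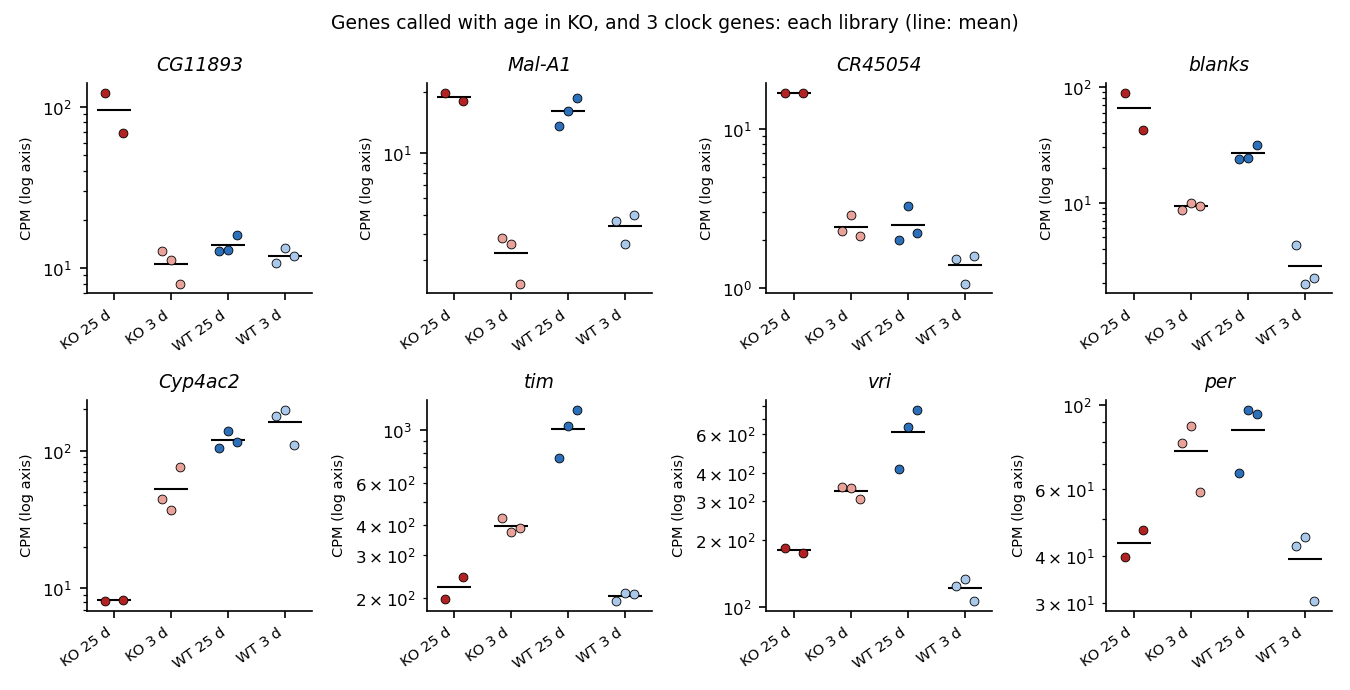
Points are single libraries (CPM, log axis), lines are group means, and groups run from KO 25 d and KO 3 d to WT 25 d and WT 3 d. CG11893, Mal-A1, CR45054 and blanks are higher and Cyp4ac2 lower in both KO 25 d libraries than in all KO 3 d libraries, while tim and vri are lower at 25 d in KO and higher at 25 d in WT.

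Of the 3 genes whose age change differed between KO and WT, 2 were clock genes that lay lower at 25 d in KO and higher at 25 d in WT. tim, which encodes the clock repressor TIMELESS, was at 198 and 245 CPM in KO at 25 d, against 429, 374 and 390 CPM at 3 d. In WT, tim was at 764 to 1209 CPM at 25 d, against 194 to 210 CPM at 3 d. KO libraries thus lay lower at 25 d than at 3 d without passing the test (log2 fold change -0.84, SE 0.21, adjusted p = 0.244), and the KO change minus the WT change was -3.15 log2 units (SE 0.29, adjusted p = 0.00648).

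vri encodes a transcription factor that represses Clk. It was at 185 and 176 CPM in KO at 25 d, against 345, 343 and 306 CPM at 3 d (log2 fold change -0.88, SE 0.24, adjusted p = 0.281), and its difference from the WT age change was -3.21 (SE 0.33, adjusted p = 0.00903). In WT it was at 415 to 770 CPM at 25 d, against 106 to 133 CPM at 3 d. per, the partner of tim in the repressor complex, was at 39.6 and 46.7 CPM in KO at 25 d, against 79.4, 88.1 and 59.0 CPM at 3 d (log2 fold change -0.81, SE 0.25, adjusted p = 0.322), and its exons overlap CG2650 on the other strand. Clk, an activator of all 3, was at 37.5 and 61.9 CPM, against 31.0, 42.9 and 36.4 CPM, with overlapping groups.

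The last gene called for a difference of age changes was CG11893 (log2 difference 2.96, SE 0.36, adjusted p = 0.0257), so 3 of 11867 genes (0.0253%) were called in this test. The 3 calls were not equally stable. Over the 11 fits that left out 1 library, the call for tim ended in 1 (without WT 3 d replicate 1, adjusted p = 0.0540). The call for vri ended in 4, without WT 3 d replicate 1 (0.0578), WT 25 d replicate 2 (0.0524) or KO 3 d replicate 1 or 2 (0.0560 and 0.0506), and with the replicate block (0.0542). The call for CG11893 ended without any 1 of the 9 libraries other than the KO 25 d pair (0.0607 to 0.176), with the replicate block (0.105) and in limma voom (0.0626). Without WT 3 d replicate 1 edgeR called no gene, with 554 at an unadjusted p under 0.05. Of the 12 clock genes tested none was called with age in KO, 4 lay lower at 25 d without overlap and 1 higher, against 12.0% and 8.03% of all tested genes, and their median log2 fold change was -0.16, against -0.04 over all genes, but 0.02 without KO 25 d replicate 1. Time of day at dissection is not given in the sources used here and its part in these values was not tested.

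To describe changes seen in both 25 d libraries, genes were counted as concordant when the group with the higher mean was at 5 CPM or more, the groups did not overlap, and each 25 d library was at least 1 log2 unit from the 3 d mean on the same side. By this rule 32 genes (0.27% of those tested) were higher and 80 (0.674%) lower at 25 d. Without replicate 1 the rule gave 55 higher and 177 lower, and without replicate 2 it gave 968 and 806. Leaving out KO 3 d replicate 1 gave 130 lower, and leaving out KO 3 d replicate 3 gave 62 higher.

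Among the 10 concordant genes furthest above were the 4 called ones, CG10514, TotC and 4 genes for which no role is given here. TotC encodes a Turandot protein, a small secreted protein induced by stress, and was at 16.2 and 17.96 CPM at 25 d, against 1.08, 0.649 and 4.25 CPM at 3 d (adjusted p = 0.399). CG10814 was at 55.9 and 33.2 CPM, against 0.244, 0.920 and 1.94 CPM (log2 fold change 5.44, SE 1.24, adjusted p = 0.239). CG42255 was at 14.1 and 7.56 CPM, against 0.0271, 0.135 and 0 CPM (log2 fold change 7.50, SE 1.67, adjusted p = 0.198). Both were thus near 0 in KO at 3 d, and their WT means were under 1 CPM at both ages. CG34227 was at 94.1 and 120 CPM, against 1.89, 2.57 and 46.1 CPM, so that replicate 3 at 3 d lay between. CG8620 was at 32.4 and 9.30 CPM, against 0.893, 2.14 and 1.59 CPM (log2 fold change 3.76, SE 0.62, adjusted p = 0.108).

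A pair of well-known genes on the concordant list was singled out after its values were seen. Arc1, which encodes a capsid-forming protein induced by neuronal activity, was at 3874 and 1370.0 CPM at 25 d, against 383, 463 and 379 CPM at 3 d (log2 fold change 2.68, adjusted p = 0.108). MtnA, a metal-binding metallothionein gene, was at 1460.0 and 435 CPM, against 84.1, 111 and 295 CPM (log2 fold change 2.54, adjusted p = 0.244). In both, replicate 1 was the highest of the 5 libraries and replicate 2 still lay above all 3 d libraries.

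The 10 concordant genes furthest below were chp and Cpn, which encode the photoreceptor proteins chaoptin and calphotin, retinin, a protein of the corneal lens, the yolk protein gene Yp2, the odorant binding protein gene Obp99a, the neuropeptide-like gene Nplp3, and CG13428, CG7203, CG12507 and CG11459. Of these 10 genes none passed the test. Obp99a was at 0.693 and 1.38 CPM at 25 d, against 7.47, 21.4 and 54.8 CPM at 3 d (adjusted p = 0.347). CG13428 was at 0.488 and 0.536 CPM, against 19.4, 4.22 and 7.92 CPM (log2 fold change -4.35, SE 0.70, adjusted p = 0.108). Nplp3, retinin, CG7203, CG12507 and CG11459 had no counts in replicate 1 at 25 d, and replicate 2 was at 0.113 to 2.09 CPM. At 3 d the same 5 genes ranged from 0.893 to 74.8 CPM.

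Photoreceptor genes were lower in both 25 d libraries. The list held 19 tested genes of light detection, 18 with a log2 fold change below 0, and 9 were at least 1 log2 unit lower in both 25 d libraries, against 1.51% of all tested genes; none was called. Its median log2 fold change was -1.99, against -0.04 over all genes, and the medians in replicates 1 and 2 were -0.96 and -2.51. Without replicate 1 the fitted median was -3.20, and without replicate 2 it was -1.60. ninaE, the main opsin of the eye, was at 586 and 349 CPM at 25 d, against 847, 3913 and 2394 CPM at 3 d (log2 fold change -2.35, adjusted p = 0.390). chp was at 8.42 and 5.33 CPM, against 39.7, 216 and 146 CPM (log2 fold change -4.28, SE 0.93, adjusted p = 0.198). Both genes were lowest at 3 d in replicate 1. ninaC, which encodes a myosin of the light-sensing membrane, was at 31.0 and 18.6 CPM, against 92.2, 396 and 256 CPM (adjusted p = 0.227). The light-gated channel genes followed the same order, with trp at 38.1 and 23.4 CPM at 25 d, against 84.0, 390 and 316 CPM at 3 d, and trpl at 44.8 and 13.9 CPM, against 122, 521 and 292 CPM. Not every member was lower: rdgA, a diacylglycerol kinase gene, was at 325 and 214 CPM, against 254, 315 and 224 CPM.

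The eye is not part of the third antennal segment, and expression outside the eye was not tested for single members of the list. These genes were listed as markers of photoreceptors, the light-sensing cells of the eye. Their summed level was 2500.0 and 1363 CPM in KO at 25 d, against 2913, 9881 and 7088 CPM at 3 d, and it ranged from 2171 to 10430 CPM over the WT libraries. KO 3 d replicate 1 thus lay near the 25 d libraries and the other two at 3 d well above. Of the 20 members in the table, ninaA had no count in any library, and the 19 tested ones all had counts in KO libraries. In bulk tissue, fewer cells of a type and less RNA per cell cannot be told apart, and the part of eye tissue in these values was not tested.

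Yolk and fat body genes, expressed in the fat body and, for the yolk proteins, in females, gave a similar order of libraries. Yp1, Yp2 and Yp3 were concordant and lower, so 3 of the 10 members tested were, against 0.674% of all tested genes, and none was called. Yp2 was at 48.6 and 127 CPM at 25 d, against 561, 2436 and 1821 CPM at 3 d (log2 fold change -4.19, SE 2.43, adjusted p = 0.5). Yp3 was at 1084 and 431 CPM, against 1089, 3914 and 4795 CPM (adjusted p = 0.720), so its 25 d replicate 1 was level with 3 d replicate 1. Yp1, which overlaps CR45601 on the other strand, was at 300 and 252 CPM, against 410, 1798 and 1888 CPM. The summed level of the list was 2689 and 1263 CPM at 25 d, against 2309, 8640 and 9714 CPM at 3 d, with a WT range of 540 to 7132 CPM. Lsp1beta, a larval serum protein gene of the same list, ran the other way in replicate 1, at 1112 and 123 CPM, against 36.1, 77.2 and 197 CPM. Of the 10 members 8 had a log2 fold change below 0 and 2 above, and only those 2 had an unadjusted p under 0.05. The largest fitted change among members at 5 CPM or more was upward (log2 fold change 5.52). In replicate 2 only 1 member was above 0. roX1, a non-coding RNA of male dosage compensation whose exons overlap ec on the other strand, was at 2735 and 1260 CPM at 25 d, against 1230, 745 and 964 CPM at 3 d (log2 fold change 1.03, adjusted p = 0.365). The other two of the male-specific list did not share this order. roX2, a partner of roX1, was at 8.49 and 17.4 CPM, against 13.8, 9.55 and 10.6 CPM, and msl-2, which encodes a protein of the same complex, was at 19.1 and 43.8 CPM, against 33.3, 34.2 and 30.4 CPM. In both, replicate 1 was lowest and replicate 2 highest of the 5 libraries. The part of fly sex in these values was not tested.

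Muscle genes were lower at 25 d for 21 of 23 tested members (median log2 fold change -0.97), with 11 members below all 3 d libraries, against 12.0% of all genes; none was called. Act79B, an actin of adult muscle, was at 2.87 and 6.23 CPM at 25 d, against 20.5, 18.8 and 50.7 CPM at 3 d (log2 fold change -2.72, SE 0.50, adjusted p = 0.128). Mhc, the muscle myosin heavy chain gene, was at 91.9 and 73.7 CPM, against 180, 156 and 467 CPM (log2 fold change -1.69, SE 0.50, adjusted p = 0.313). Scp1, a sarcoplasmic calcium-binding protein gene outside the list and chosen after its values were seen, was at 7.34 and 5.30 CPM, against 46.4, 27.9 and 97.7 CPM (adjusted p = 0.108). In all 3 genes, replicate 3 at 3 d was the highest library. The list summed to 1170.0 and 732 CPM at 25 d, against 1159, 1125 and 2678 CPM at 3 d, and to 851 to 4458 CPM in WT; no member was at 0 in all KO libraries. The part of muscle carried over at dissection was not tested.

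Among hemocyte genes, markers of the blood cells, 11 of 13 had a log2 fold change below 0, with a median of -1.16, and none was called. Pxn, which encodes the matrix enzyme peroxidasin, was at 3.98 and 10.5 CPM at 25 d, against 30.4, 30.2 and 25.99 CPM at 3 d (log2 fold change -1.99, SE 0.49, adjusted p = 0.231), and it overlaps CG16986 on the other strand. PPO1 and PPO2, prophenoloxidases of crystal cells, were like Pxn concordant and lower, so 3 of the 13 members were, against 0.674% of all tested genes. NimC1, a phagocytosis receptor gene, went the other way, at 106 and 54.95 CPM, against 39.8, 54.9 and 26.2 CPM. The medians of the list in replicates 1 and 2 were -1.54 and -0.25, the fitted median was -0.38 without replicate 1 and -2.09 without replicate 2, and its summed level was 391 and 584 CPM at 25 d, against 671, 754 and 612 CPM at 3 d.

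Glia wrap the olfactory axons, and 11 of their 12 markers had log2 fold changes below 0 (median -0.30), with 5 of them below all 3 d libraries, against 12.0% of all genes, and none called. Replicate 1 had a median of -0.82 with no member above 0, and replicate 2 one of -0.06 with 6 of 12 above 0. Without replicate 1 the fitted median was -0.06. nrv2, a sodium pump subunit gene of glia, was at 318 and 388 CPM at 25 d, against 562, 536 and 623 CPM at 3 d (log2 fold change -0.70, SE 0.17, adjusted p = 0.241). Eaat1, the glial glutamate transporter gene, was at 65.4 and 86.3 CPM, against 109, 102 and 197 CPM (adjusted p = 0.445). Both were below every 3 d library in both 25 d libraries. The list summed to 2410.0 and 3165 CPM at 25 d, against 3839, 4164 and 3505 CPM at 3 d.

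**Figure D3:**
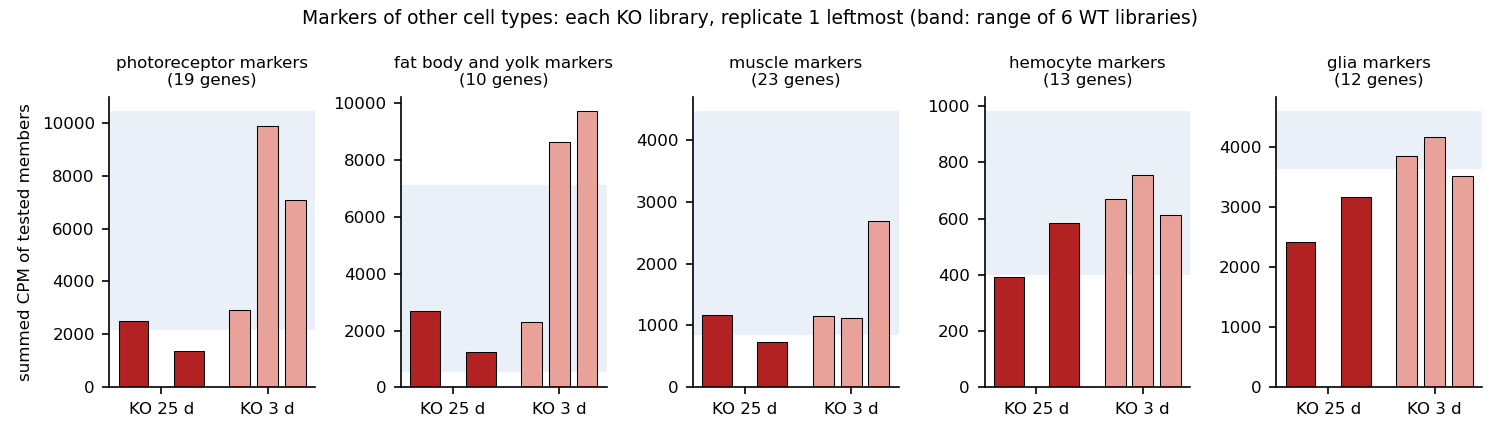
Bars give the summed CPM of the tested members of 5 marker lists in each KO library, KO 25 d (dark red) left of KO 3 d (light red), with replicate 1 leftmost and the range of the 6 WT libraries as a blue band. Photoreceptor sums are 2500.0 and 1363 CPM at 25 d, against 2913, 9881 and 7088 CPM at 3 d, and KO 3 d replicate 1 is the lowest of its group for photoreceptor and yolk genes while replicate 3 is the highest for muscle.

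The receptors of the olfactory neurons showed no called change. Of 45 odorant receptor genes tested, 20 had a log2 fold change above 0 and 25 below, with a median of -0.03, against -0.04 over all genes (0.10 without replicate 1 and -0.31 without replicate 2). Among the 35 at 5 CPM or more, fold changes ran from -0.57 to 0.63. Or43a, at the top of that range, was at 75.4 and 43.7 CPM at 25 d, against 38.8, 41.2 and 35.2 CPM at 3 d (log2 fold change 0.63, SE 0.29, adjusted p = 0.429). Of the 17 ionotropic receptors, 8 were above 0 and 9 below, and Ir8a, a co-receptor of this family, was at 66.9 and 122 CPM, against 164, 166 and 105 CPM. In the ionotropic receptors the 25 d libraries differed more from each other than from the 3 d group: the median was -0.72 in replicate 1 and 0.14 in replicate 2. Of 33 genes of the sensory cilium and its transport none was called, with a median of 0.11 (0.10 without replicate 1 and -0.01 without replicate 2).

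Secreted proteins of the sensory hairs were split between the 2 libraries at 25 d. Per kilobase of exon, the 5 highest transcripts in KO at 25 d were Obp19d, Obp83b, CR34335, Os-C and Drsl5, at means of 70150 to 22860 CPM per kb, and Os-C overlaps Sfp84E on the other strand. At 3 d the 5 highest were Obp19d, Drsl5, Obp83b, Obp83a and a10, at 27900 to 13600 CPM per kb. Obp19d alone was at 137200 CPM in replicate 1 and 17220 CPM in replicate 2, against 29180, 26110 and 36850 CPM at 3 d. Its replicates at 25 d thus lay on either side of all 3 d libraries, and the fitted log2 fold change of 1.33 (SE 0.62, adjusted p = 0.433) stands for neither. Obp83b, one of the binding proteins of pheromone-sensing hairs, was at 35060 and 4490 CPM, against 7522, 6325 and 8148 CPM, again on either side. Over the 39 odorant binding protein genes tested, the median was 0.44 in replicate 1 and -0.45 in replicate 2. Summed, they reached 230300 and 39530 CPM at 25 d, against 64160, 57420 and 73540 CPM at 3 d. Obp56a was higher in both, at 60.4 and 11.8 CPM, against 3.52, 3.44 and 6.01 CPM (log2 fold change 3.07, SE 0.61, adjusted p = 0.152). Snmp2, a membrane protein gene of support cells, was lower in both, at 8.93 and 17.4 CPM, against 36.3, 32.4 and 27.9 CPM (log2 fold change -1.29, SE 0.29, adjusted p = 0.198).

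Ribosomal protein genes were also split between the 2 libraries, with replicate 1 again on the higher side. The median over 86 cytosolic ribosomal protein genes was 1.34 in replicate 1 and -0.19 in replicate 2, and 81 of the 86 had a fitted log2 fold change above 0 (median 0.76); none was called. RpS27, a small-subunit protein gene, was at 3813 and 549 CPM at 25 d, against 519, 508 and 938 CPM at 3 d. Replicate 2 lay within the 3 d range and replicate 1 well above it. RpL41 was at 6719 and 511 CPM, against 667, 596 and 1904 CPM. Mitochondrial ribosomal proteins (74 genes) had medians of 0.92 and -0.26 in replicates 1 and 2, oxidative phosphorylation subunits (71 genes) 0.57 and -0.50, and proteasome subunits (39 genes) 0.39 and -0.19. Without replicate 1 the fitted median of the cytosolic ribosomal list was -0.20.

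**Figure D4:**
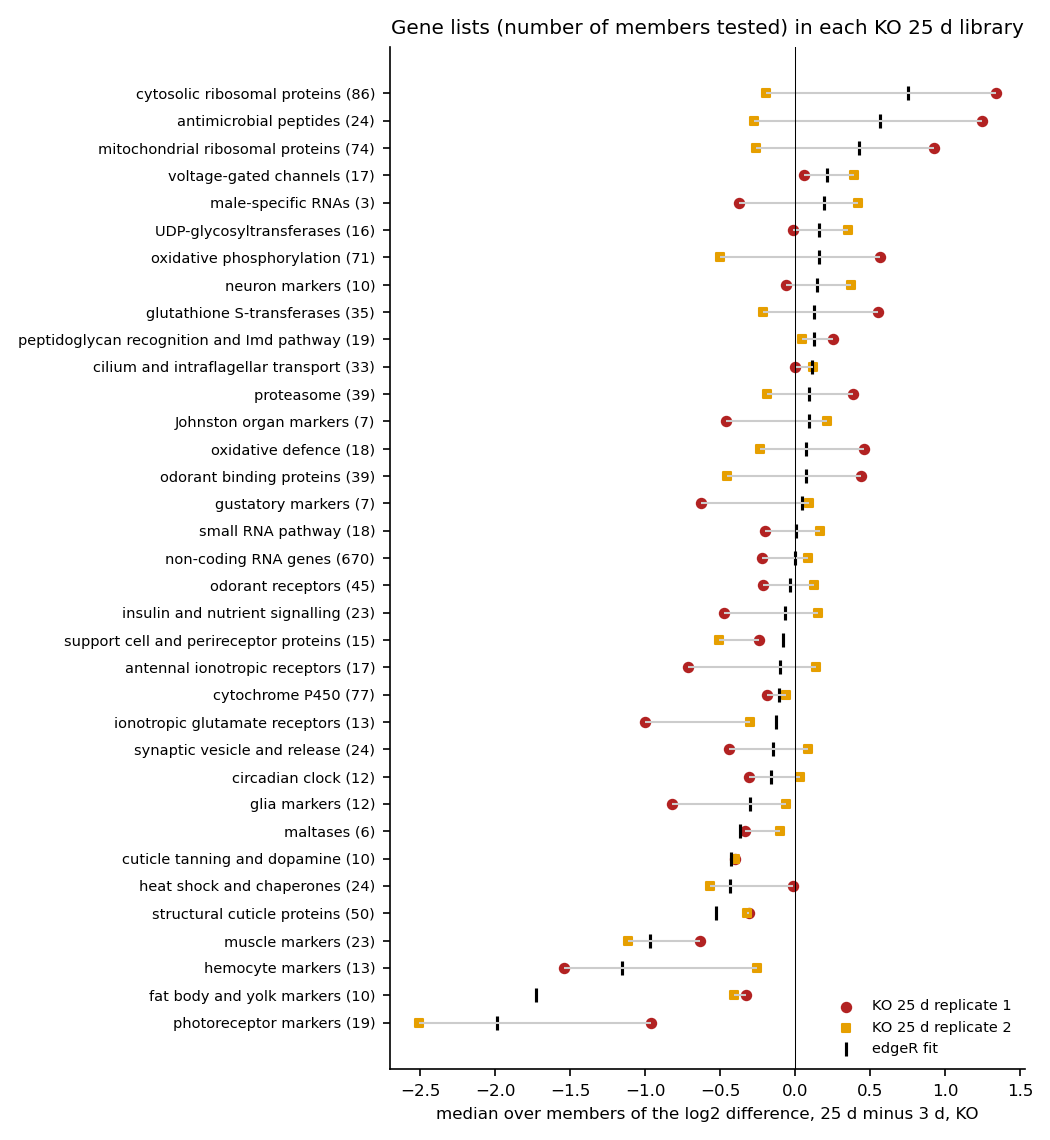
For each of 35 gene lists, the median log2 difference from 3 d is shown for KO 25 d replicate 1 (red circles), replicate 2 (orange squares) and the edgeR fit (black marks). Ribosomal lists are above 0 in replicate 1 and below 0 in replicate 2, whereas photoreceptor, yolk, hemocyte and muscle lists are below 0 in both.

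The split between the 2 libraries moved with gene length. With the tested genes in 5 equal bins of exon length, the shortest bin (31 to 981 bases) had a median log2 difference of 0.33 in replicate 1 and -0.17 in replicate 2. In the longest bin (3754 to 71820 bases) it was -0.41 in replicate 1 and 0.21 in replicate 2. Among genes at 50 CPM or more over the 25 d libraries, those furthest higher in replicate 1 were CR40469, RpL41, CG34423, CG15065 and IM14, and those furthest lower were Rab3-GEF, Myo31DF, CG14786, Thd1 and Piezo. CG34423, Rab3-GEF, Myo31DF and Thd1 overlap genes on the other strand. Piezo, a long gene for a mechanically gated channel, was at 43.8 and 162 CPM at 25 d, against 134, 147 and 129 CPM at 3 d. RNA quality is not given in the sources used here, and its part in this split was not tested.

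**Figure D5:**
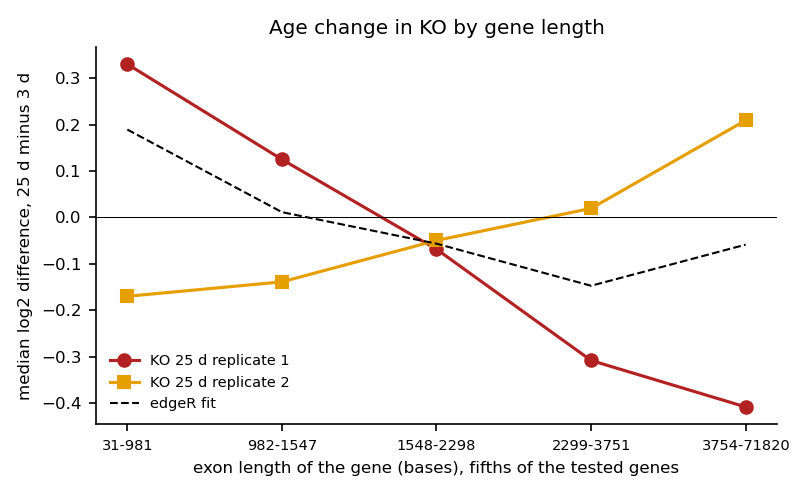
Median log2 difference of KO 25 d from KO 3 d in 5 bins of tested genes by exon length (bases), for replicate 1 (red), replicate 2 (orange) and the edgeR fit (dashed). Replicate 1 runs from 0.33 in the shortest to -0.41 in the longest bin and replicate 2 from -0.17 to 0.21.

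Antimicrobial peptide genes, the effectors of fly immunity, had a median log2 fold change of 0.57 over 24 genes, 1.25 in replicate 1 and -0.27 in replicate 2, and none was called. The fitted median was -0.72 without replicate 1 and 1.32 without replicate 2. Listericin, which encodes an antibacterial protein, was at 235 and 28.7 CPM at 25 d, against 13.9, 10.1 and 29.4 CPM at 3 d (log2 fold change 2.89, SE 0.89, adjusted p = 0.327). AttA, an attacin gene, was at 152 and 27.9 CPM, against 4.03, 9.55 and 33.7 CPM, so 3 d replicate 3 exceeded 25 d replicate 2. Receptors and signalling proteins of the Imd immune pathway had a median of 0.12 over 19 genes, but 0.03 without replicate 1 and 0.21 without replicate 2.

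Stress and detoxification genes held the call for Cyp4ac2 and no other. Over 24 heat shock and chaperone genes the median was -0.43, but -0.94 without replicate 1 and -0.12 without replicate 2. Hsp68, a heat-inducible chaperone gene that overlaps CG6000 and CR44097 on the other strand, was at 8.24 and 8.80 CPM at 25 d, against 9.63, 40.8 and 139 CPM at 3 d (adjusted p = 0.5), and 3 d replicate 1 was close to both 25 d libraries. Hsp60, a mitochondrial chaperone gene, was at 500.0 and 427 CPM, against 355, 346 and 392.2 CPM. GstS1, a glutathione S-transferase gene, had tight groups, at 56.4 and 63.4 CPM, against 114, 113 and 116 CPM (log2 fold change -0.93, SE 0.15, adjusted p = 0.108). GstD5 of the same family was at 7.11 and 5.58 CPM, against 1.57, 2.38 and 1.24 CPM (log2 fold change 1.87, SE 0.52, adjusted p = 0.294). Over the 35 glutathione S-transferases 19 were above 0 and 16 below. Of 77 cytochrome P450 genes 29 were above 0 and 48 below, and Cyp6a2, an insecticide-metabolising member, was at 507 and 442 CPM, against 301, 258 and 274 CPM (log2 fold change 0.77, SE 0.24, adjusted p = 0.322).

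Lists of neuronal genes showed no common direction in the fit of both 25 d libraries. Of 17 voltage-gated channel genes 13 had log2 fold changes above 0, with a median of 0.21, and 5 lay above all 3 d libraries, against 8.03% of tested genes; none was called. The channel median was 0.06 in replicate 1, with 9 of 17 above 0, and 0.39 in replicate 2, with 15 above 0. Of 24 genes of synaptic vesicles and release 6 were above 0 and 18 below, and of 13 ionotropic glutamate receptors 4 were above 0 and 9 below. In replicate 1, 4 of the synaptic genes and 5 of the receptors were above 0, and in replicate 2, 17 and 4. Sh, a potassium channel gene, was at 403 and 237 CPM at 25 d, against 197, 181 and 128 CPM at 3 d (log2 fold change 0.93, SE 0.24, adjusted p = 0.267). na, the gene of a sodium leak channel, was at 162 and 119 CPM, against 104, 93.4 and 75.1 CPM (log2 fold change 0.63, SE 0.18, adjusted p = 0.298). The lowest 3 d library was replicate 3 for both. Neuron markers in general had a median of 0.14 over 10 genes. It was -0.06 in replicate 1, with 5 above 0, and 0.37 in replicate 2, with 10 above 0. These markers summed to 6138 and 5450.0 CPM at 25 d, against 4912, 4867 and 3032 CPM at 3 d, and the part of neuron content in these values was not tested. InR, the insulin receptor gene, was at 219 and 171 CPM, against 108, 128 and 71.5 CPM (log2 fold change 0.93, SE 0.21, adjusted p = 0.209). Of the 23 list members of insulin and nutrient signalling, InR included, 10 had a fitted log2 fold change above 0. In replicate 1, 8 were above 0 (median -0.48), and in replicate 2, 18 were (median 0.15).

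Structural cuticle genes had medians of -0.31 and -0.32 in replicates 1 and 2 at 25 d, but single members and sums differed between these libraries. Among 50 tested structural cuticle genes 17 were above 0 and 32 below, the median was -0.53, and 6 were at least 1 log2 unit lower in both 25 d libraries, against 1.51% of all tested genes. In replicate 1, 10 were at least 1 log2 unit above the 3 d mean and 9 at least 1 below, and in replicate 2 it was 1 above and 10 below. The list summed to 3374 and 1192 CPM at 25 d, against 1442, 1128 and 2417 CPM at 3 d, so replicate 1 lay above all 3 d libraries and replicate 2 within their range. Without replicate 1 the fitted median was -0.58, and without replicate 2 it was -1.52. Cpr49Ae was at 10.2 and 6.06 CPM at 25 d, against 38.1, 32.5 and 38.6 CPM at 3 d (log2 fold change -2.17, SE 0.48, adjusted p = 0.198). Cpr47Ef was at 1.18 and 0.874 CPM, against 10.8, 5.65 and 16.6 CPM (log2 fold change -3.41, SE 0.62, adjusted p = 0.128). In both genes the 25 d libraries were close together and below all 3 d libraries. The tanning list had medians of -0.40 and -0.40 in replicates 1 and 2, with 9 of 10 genes below 0. Its member t (tan), which frees dopamine from its beta-alanine conjugate, was at 9.80 and 18.7 CPM, against 38.8, 83.7 and 44.4 CPM (log2 fold change -1.97, SE 0.42, adjusted p = 0.198).

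Non-coding RNA genes numbered 2075 in the table, of which 670 were tested. Besides CR45054 none was called, and 17 were at least 1 log2 unit higher in both 25 d libraries, against 0.573% of all tested genes, and 1 lower. CR44272 was at 32.5 and 9.11 CPM at 25 d, against 3.25, 3.17 and 3.87 CPM at 3 d (log2 fold change 2.60, SE 0.44, adjusted p = 0.108). CR43651 was at 3.80 and 11.1 CPM, against 0.379, 0.568 and 0.864 CPM (log2 fold change 3.63, SE 0.66, adjusted p = 0.128). The first was highest in replicate 1 and the second in replicate 2.

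Of the remaining lists, maltases held the call for Mal-A1 and small RNA pathway genes that for blanks, and the others held none. Fitted medians of these lists depended on which 25 d library was used, and the medians in replicate 1 and replicate 2 are given after the fitted one. For the 6 maltases the median log2 fold change was -0.37, with -0.34 and -0.10 in the 2 libraries. For the 18 small RNA pathway genes it was 0.01, with -0.20 and 0.17. Genes of synaptic vesicles and release had a median of -0.15, with -0.44 and 0.08. Ionotropic glutamate receptors had one of -0.13, with -1.002 and -0.30. Of the 13, 7 were at least 1 log2 unit lower in replicate 1 and 0 in replicate 2, against 13.4% and 2.98% of all tested genes. Only 4 of the 13 reached 5 CPM in either group, and GluRIIC and GluRIID had 0 counts in replicate 1. The 16 UDP-glycosyltransferases had a median of 0.16, with -0.02 and 0.35, and the 18 genes of oxidative defence 0.08, with 0.46 and -0.23. For the 15 support cell and perireceptor proteins it was -0.08, with -0.24 and -0.51. Markers of neighbouring sense organs had medians of 0.05 for taste (7 genes, -0.63 and 0.09) and 0.09 for the Johnston organ, the hearing organ of the adjacent segment (7 genes, -0.46 and 0.21).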

How the data were processed

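Polyadenylated RNA of the third antennal segment was sequenced from strand-marked libraries. The authors deposited raw counts of read pairs per gene, made with featureCounts 1.4.5-p1 on dm6 gene models with strand ignored, per the file headers. STAR 2.4.2a and FastQC are named in the submitters' processing notes. In 4161 of the 16727 genes, exons overlap those of an opposite-strand gene, which the text marks. Exon lengths and coordinates are those of the deposited table. Each column was given to the sample with its genotype, age and replicate number. 1 library column, a further KO 25 d replicate with no matching sample, was not used, so everything said of KO at 25 d assumes that replicate numbers mean the same in table and labels.

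The counts were tested in R 4.3.3 with edgeR 4.0.16: filterByExpr by group, TMM scaling, and the robust quasi-likelihood test on 4 group means fitted jointly to the 11 libraries, so that the 2 KO libraries at 25 d share their estimate of spread with the other 9. The common biological coefficient of variation was 0.431. The threshold for a call was 0.05 after Benjamini-Hochberg adjustment. The script was tested on simulated data in which no KO 25 d library stood apart. That test therefore cannot show how replicate 1 affects the calls. The design text calls the replicates biological. Replicate numbers were not used to pair samples in the main fit. Same-numbered KO libraries had correlations of -0.12 and 0.15 between their deviations from group means. With 2 libraries at 25 d these deviations mirror each other, so the correlations cannot show whether samples were paired.

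Lists (36, including 1 of mitochondrially encoded genes with no member in the table) are described by counts and medians, with no set test. Members, lists and rules were chosen with earlier results of these data known. Named genes were mir-284, w, Orco, GluRIIA and GluRIIB, all called genes, the 10 concordant genes furthest above and 10 furthest below, up to 4 genes per list by p, the 5 furthest above and 5 below in replicate 1 relative to replicate 2, genes called for the difference of age changes, and the 5 highest per kilobase at each age. Others were chosen after their values were seen. Alternatives were other scalings, filters and tools (DESeq2 1.42.0, limma 3.58.1), the replicate block, the KO libraries alone and leaving out each library.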

Additional observations from a re-analysis of the deposited data

Results flagged for a closer look

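For 3 genes the change with age differed between KO and WT in edgeR's test of that difference. tim had a KO change minus WT change of -3.146 log2 units (SE 0.29, adjusted p = 0.00648), with tim lower at 25 d in both KO libraries and higher at 25 d in all 3 WT libraries than in any library of the same genotype at 3 d. vri had a difference of -3.205 (SE 0.33, adjusted p = 0.00903), with the same order of libraries. CG11893 had a difference of 2.955 (SE 0.36, adjusted p = 0.0257), with both KO 25 d libraries above every other library. When 1 library was left out, the call for CG11893 ended in 9 of 11 fits (adjusted p 0.0607 to 0.176), that for vri in 4 (0.0506 to 0.0578) and that for tim in 1 (0.0540). The replicate block ended the calls for CG11893 (0.105) and vri (0.0542), limma voom that for CG11893 (0.0626), and library quality weights that for vri (0.160). Time of day at dissection is not given in the sources used here, and its part was not tested.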

How the results depend on the processing

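With 2 libraries at 25 d, of which replicate 1 stands apart, counts of called genes depended strongly on the fit. The 5 calls (4 higher, 1 lower) and the 3 calls for the difference of age changes were identical under RLE scaling, upper-quartile scaling and no filter. The stricter filter called 6 genes, 2 of them lower, and 5 for the difference. DESeq2 called 280 genes, 123 higher and 157 lower, all 5 among them, and 43 for the difference. limma voom called 5, all higher (0 lower), and 4 of them shared with edgeR. With library quality weights voom called 1 gene, 1 higher and 0 lower, and gave KO 25 d replicates 1 and 2 weights of 0.140 and 0.134. In a group of 2 libraries the deviations from the mean mirror each other, so these weights cannot show which library stands apart. The fit with the replicate number as a block called 2 genes, 2 higher and 0 lower, and 2 for the difference. The KO libraries alone gave 0 calls by edgeR, 0 higher and 0 lower, with 474 of 10927 genes at an unadjusted p under 0.05, against 1404 of 11867 in the fit of all libraries. Leaving out 1 library in turn gave 1 to 4084 calls (1 to 1800 higher, 0 to 2284 lower) and 0 to 2987 for the difference; both upper ends came without KO 25 d replicate 2, where the lone replicate 1 is assumed to vary like the other groups. As alternatives chosen after seeing the data, the concordance rule gave 33 higher and 76 lower genes under RLE scaling, 30 and 78 with a pseudocount of 1 CPM, and 33 to 968 higher and 60 to 806 lower when 1 KO library was left out. Leaving out a KO 25 d library relaxes every part of the rule but the minimum of 5 CPM, so what is shared then is largely fixed. Without KO 3 d replicates 1, 2 and 3, 78, 67 and 54 of the 80 lower and 32, 31 and 29 of the 32 higher genes were shared. Of 92 genes examined under the alternatives, 22 changed sign, none of the 5 called ones among them, and 21 of the 22 did so without KO 25 d replicate 1. For the 5 called genes leaving out 1 library could hardly change the sign, as their KO values at 25 d and 3 d do not overlap. Over the fits without 1 library, log2 fold changes ran from -0.82 to 2.16 for Obp19d, -0.70 to 2.26 for Obp83b, -0.72 to 1.03 for Obp83a, -0.85 to 1.95 for CR34335, -0.50 to 1.83 for Os-C, -1.08 to 1.35 for Drsl5, -0.57 to 0.80 for a10, -0.24 to 2.54 for RpS27, -1.03 to 2.67 for RpL41, -1.18 to 2.67 for CR40469, -0.67 to 2.68 for CG15065, -0.69 to 2.75 for IM14, -1.80 to 0.61 for Rab3-GEF, -1.83 to 0.40 for Myo31DF, -1.40 to 0.62 for CG14786, -1.48 to 0.44 for Thd1, -1.64 to 0.26 for Piezo, -0.060 to 0.75 for Orco, -0.22 to 0.12 for GluRIIA, -0.29 to 0.30 for rdgA, -0.42 to 0.63 for roX2 and -0.77 to 0.44 for msl-2. With the replicate block GluRIIA was at 0.042 and rdgA at -0.059, and with quality weights rdgA was at -0.027 and roX2 at -0.00846. Of 35 list medians, 13 changed sign without KO 25 d replicate 1 and 7 without replicate 2; the cause was not tested. Counting error limits genes under about 1 CPM: 3 counts correspond to 0.0770 CPM in KO 25 d replicate 1 and 0.0846 CPM in replicate 2.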
